A study of Mus musculus with 4 samples.

Results

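T cells made up 75 of the 26121 islet barcodes that passed the depth filters in the 4 mouse islet libraries studied by single-cell RNA sequencing. A barcode was kept with at least 1000 UMIs (unique molecular identifiers, counted as RNA molecules), at least 500 genes and at most 15% of UMIs from mitochondrial genes. It was called a T cell when the hormone genes Ins1, Ins2, Gcg, Sst and Ppy gave under 25% of its UMIs. It also had to hold a UMI of at least 2 of the 6 genes Cd3e, Cd3d, Cd3g, Trac, Trbc2 and Lck, and no UMI of the B cell genes Cd79a or Ms4a1. These choices used measured RNA, so the levels of those genes below describe the selection and test nothing. By library, there were 60 T cells in CCR2-DTR islets at 6 months, 4 in WT islets at 6 months, 6 in CCR2-DTR islets at 1 month and 5 in WT islets at 1 month.

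CCR2-DTR+/- mice carry a transgene that gives cells with the chemokine receptor CCR2, such as inflammatory monocytes, the diphtheria toxin receptor. WT mice were littermates without it (CCR2-DTR-/-). All mice were females on a C57b6/J background and all received the toxin, WT included, as 4 injections 48 hours apart from postnatal day 2. They were weaned at day 21 and taken at 1 month or 6 months of age, so depletion lay weeks to months before sampling. Each library was made from 300 islets pooled from 2 to 3 animals, and the animals of a pool cannot be told apart. There was 1 library for each combination of genotype and age. No difference between libraries could therefore be tested, and every interval below is a 95% interval for counting error only.

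T cells recognise antigen through a receptor of paired chains, alpha with beta or gamma with delta, that signals through the CD3 proteins and the kinase LCK. CD4 T cells mostly help other immune cells, and CD8 T cells kill target cells or release inflammatory factors. Naive T cells recirculate through lymph nodes, whereas antigen-experienced cells can stay in tissue. Healthy mouse islets hold few T cells beside their resident macrophages, and T cells are the cells that destroy beta cells in autoimmune diabetes.

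T cell markers that the selection did not use were present, whereas not every list of another cell type was low. Over the 75 cells, Cd247, the CD3 zeta chain, had a UMI in 52.0%, Cd28, a costimulatory receptor, in 57.3%, Il7r, the receptor for the survival factor IL-7, in 58.7%, and Trbc1, a constant region of the beta chain, in 49.3%. As a description of the selection itself, all 6 of its genes were seen in 31 cells, at least 5 in 55 and only 2 in 5. Markers of other cell types are given as summed CPM, the UMIs of a gene or list scaled to a common total. Of the B cell list 5 of 10 genes had a UMI in CCR2-DTR at 6 months, with 782 UMIs or 2133 CPM, against 427 CPM in the endothelial barcodes of that library, and 691 of these UMIs were of Cd74. In the other 3 libraries the list was at 242 to 336 CPM, and Pax5 was at 0 in all 4. Of 7 endothelial genes 4 had a UMI in CCR2-DTR at 6 months, at 43.6 CPM, and 13 of the 75 cells held 1 endothelial gene and none more, with Cdh5 and Kdr at 0. Of the neutrophil and mast cell list 1 of 8 genes was seen, with 5 UMIs in CCR2-DTR at 6 months, and S100a8 and S100a9 were at 0. Of the list for type 2 innate lymphoid cells 3 of 8 genes were seen in CCR2-DTR at 6 months, at 139 CPM against 71.8 CPM in endothelial barcodes, and the list reached 673 CPM in WT at 1 month, from 8 UMIs of 1 gene. Its genes Il1rl1 and Areg were at 0. Of the natural killer list 7 of 8 genes had a UMI in CCR2-DTR at 6 months, where its summed level was 338 CPM. It was at 56.3 CPM in WT at 6 months, 162 CPM in CCR2-DTR at 1 month and 1514 CPM in WT at 1 month, the last all from Tyrobp and Fcer1g, each in 1 cell. Ncr1, the defining receptor of natural killer cells, had 3 UMIs in 2 cells in CCR2-DTR at 6 months and 0 elsewhere. The macrophage list was at 2196 and 2302 CPM in CCR2-DTR at 6 months and 1 month, against 278 and 257 CPM in endothelial barcodes. At 1 month 56 of the list's 57 UMIs in CCR2-DTR were of Apoe, all in 1 cell. In WT the macrophage list was at 56.3 CPM at 6 months and 0 at 1 month. The mesenchymal list reached 8358 CPM in CCR2-DTR at 1 month, against 318 CPM. The list for dendritic cells and monocytes lay above endothelial barcodes in all 4 libraries, most in WT at 6 months. There it had 23 UMIs, at 1295 against 14.6 CPM.

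Some members stood apart. In 10 of them the cell held over 10000 UMIs, 9 in CCR2-DTR at 6 months and 1 in CCR2-DTR at 1 month, and the 9 gave 49.1% of that library's T cell UMIs. Among the 9, 3 held division genes and little hormone RNA, at 0.670% to 3.57% of UMIs. Hormone RNA of 15% or more was found in 5 of the 9, and the remaining cell, with 2 of the selection genes, held UMIs of all 5 macrophage genes C1qa, C1qb, C1qc, Csf1r and Adgre1. A cell of 7853 UMIs in the same library also held all 5. The large cell of CCR2-DTR at 1 month had 11780 UMIs, 2 of the selection genes and 7 of 8 mesenchymal genes, and gave 47.6% of that library's T cell UMIs. Many of the results below are also given without the cells over 10000 UMIs. A Scrublet doublet score above 0.25 was found in 4 members in CCR2-DTR at 6 months and in 1 in CCR2-DTR at 1 month. The 4 were large cells with hormone RNA of 15% or more, and all are among the 21 cells of that library with Cd4 alone. The other was the large cell with mesenchymal genes.

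**Figure D1:**
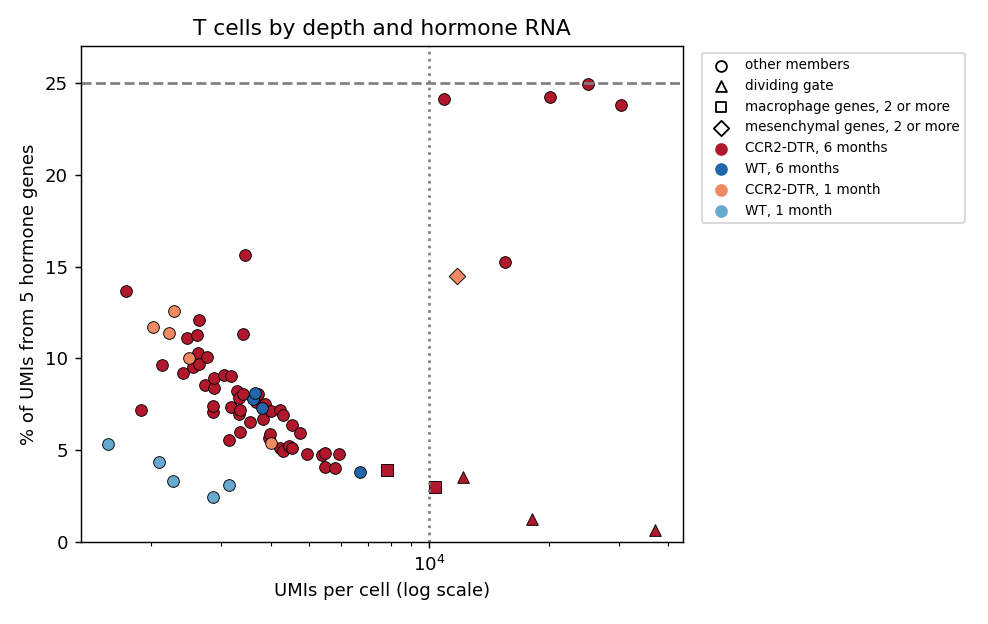
Each point is 1 T cell, with its UMI total on a log scale (x) and the share of its UMIs from 5 hormone genes (y), coloured by library; shapes mark cells with genes of other types or of division. Of the 75 cells 10 lie beyond 10000 UMIs, 9 of them in CCR2-DTR at 6 months, and the 3 dividing cells lie at hormone shares of at most 3.57%.

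Hormone and acinar RNA, which T cells do not make, was found in them as in other cells. The median hormone share of T cells was 7.28% in CCR2-DTR at 6 months, 7.57% in WT at 6 months, 11.6% in CCR2-DTR at 1 month and 3.31% in WT at 1 month. In endothelial barcodes (under 25% hormone RNA, UMIs of at least 3 of Pecam1, Cdh5, Plvap, Flt1 and Kdr), which make no hormone, it was 4.23%, 4.09%, 6.73% and 3.24% in the same order. A UMI of an acinar gene was found in 55 of 60, 1 of 4, 4 of 6 and 1 of 5 T cells, against 87.9%, 37.0%, 67.5% and 8.40% of endothelial barcodes. The same endothelial barcodes serve as background for T cell genes, since Cd3e, Cd3d and Cd3g had a UMI in 0 of 371, 0 of 322, 0 of 692 and 0 of 667 of them. Median depth was 3682.5, 3725.5, 2379.5 and 2263 UMIs in T cells, against 5674, 5863, 4052.5 and 3236 in endothelial barcodes.

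The limits for hormone and mitochondrial RNA cut through few barcodes, and the minimum of 2 selection genes through more. The T cell with the highest hormone share had 24.9%, and the nearest barcode left out for hormone RNA had 33.0%. Barcodes with only 1 selection gene numbered 37, 33, 63 and 63 in the 4 libraries in that order. They outnumbered the T cells in every library but CCR2-DTR at 6 months, and their counts did not follow those of the T cells. Barcodes with at least 2 selection genes but too much hormone RNA numbered 2, 0, 1 and 1. In CCR2-DTR at 6 months 3 barcodes with at least 2 selection genes failed the mitochondrial limit, at 36.7% to 61.2%, while the highest member had 9.08%. No barcode was lost through Cd79a or Ms4a1. Pairs of libraries shared 6 to 34 barcode names, none of them T cells.

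T cells were most frequent in CCR2-DTR islets at 6 months. They were 1.37% of barcodes there (60 of 4392, interval 1.04% to 1.76%), against 0.108% in WT islets at 6 months (4 of 3720, 0.0293% to 0.275%). At 1 month they were 0.0673% in CCR2-DTR islets (6 of 8910, 0.0247% to 0.147%) and 0.0550% in WT islets (5 of 9099, 0.0178% to 0.128%). The CCR2-DTR share at 6 months lay above the other 3, whose intervals overlapped one another.

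The ratio of CCR2-DTR over WT was 12.7 at 6 months (4.71 to 48.1) and 1.23 at 1 month (0.312 to 5.08). Between ages it was 20.3 in CCR2-DTR islets (8.79 to 57.5) and 1.96 in WT islets (0.388 to 9.09), as 6 months over 1 month. With barcodes holding a UMI of the leukocyte gene Ptprc as the denominator, T cells were 20.6% (56 of 272) in CCR2-DTR at 6 months and 3.92% (4 of 102) in WT at 6 months. They were 3.07% (5 of 163) in CCR2-DTR and 2.24% (3 of 134) in WT at 1 month. The ratio at 6 months was then 5.25. Over all 13 alternative settings it lay between 5.25 and 15.5. The ratio at 1 month was 0.204 (0.00432 to 1.83) when cells needed under 10% hormone RNA, from 1 CCR2-DTR and 5 WT cells. Since 1 pool stands for each group, animals, dissections and libraries cannot be told apart from genotype and age.

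Other immune cells gave a scale for this. B cell barcodes (under 25% hormone RNA, UMIs of at least 2 of 4 B cell genes, among them Cd79a, Cd79b and Ms4a1, none of Cd3e, Cd3d, Cd3g or Trac) numbered 52 in CCR2-DTR and 7 in WT at 6 months, and 21 in CCR2-DTR against 7 in WT at 1 month. Their CCR2-DTR over WT ratio was 6.29 (2.85 to 16.4) at 6 months and 3.06 (1.25 to 8.53) at 1 month. Macrophage barcodes (at least 3 of the 5 macrophage genes above) numbered 140 in CCR2-DTR and 91 in WT at 6 months, and 141 in CCR2-DTR against 154 in WT at 1 month. Their ratio was 1.30 (0.994 to 1.72) at 6 months and 0.935 (0.739 to 1.18) at 1 month. The interval of this ratio thus lay above 1 at both ages for B cells, and at 6 months for T cells. It covers counting error only, and with 1 pool for each group genotype cannot be told apart from animals or dissection. The high T cell count in CCR2-DTR at 6 months was known when these cells were chosen.

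**Figure D2:**
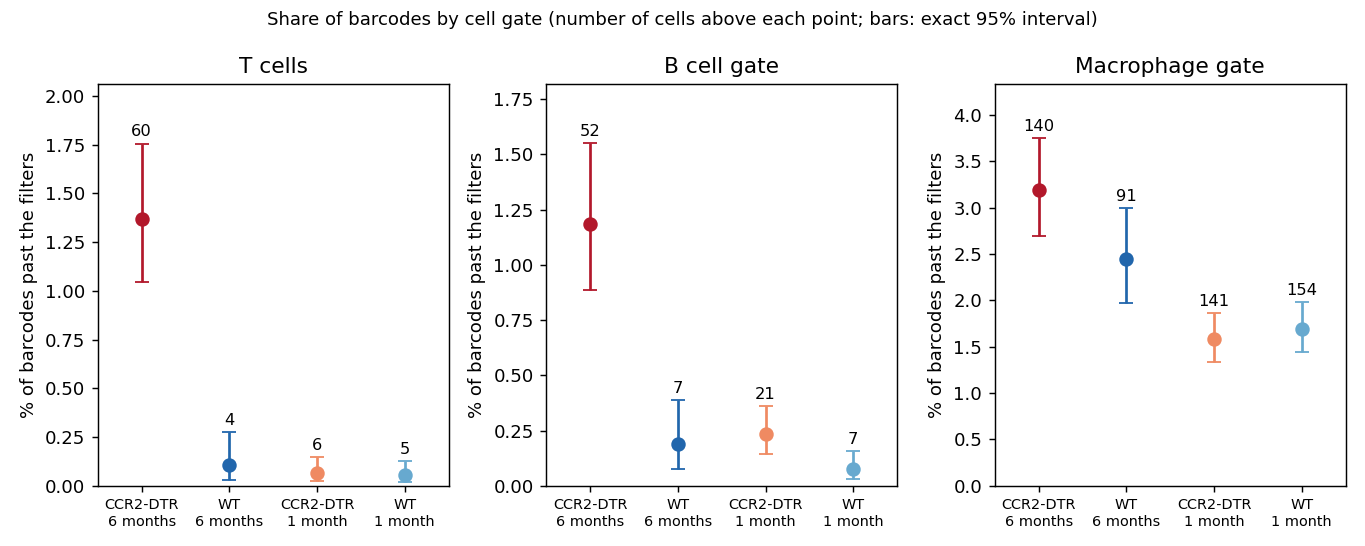
Share of filtered barcodes in the T cell, B cell and macrophage gates (y, %) in each of the 4 libraries (x), with exact 95% intervals and the number of cells above each point. The T cell share was 1.37% in CCR2-DTR at 6 months and at most 0.108% in the other 3 libraries, while macrophages ranged from 1.58% to 3.19%.

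Izumo1r, Cd6, Sh2d1a and Cd5 stood first among the genes that set T cells apart from all other barcodes, before the selection genes Cd3g, Cd3e, Cd3d and Trbc2, an order that the choice of cells affects. Of the selection genes, Cd3g had 285 UMIs in 67 of 75 T cells and Trbc2 348 UMIs in 68. Among genes the selection did not use, Izumo1r, the folate receptor 4 of activated and regulatory CD4 cells, had 57 UMIs in T cells and 3 in the other barcodes. Sh2d1a, the adaptor SAP of T cell help, had 83 against 6, and the signalling restraint Cd5 66 against 5. Nkg7, a granule protein of killer cells, had 193 UMIs in T cells against 34, and Ms4a4b, a membrane protein of T cells, 243 against 46. The chemokine Ccl5 was abundant, with 1174 UMIs in 37 T cells against 647 in all other barcodes.

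Coreceptor RNA split the T cells of CCR2-DTR islets at 6 months. Cd4 alone was seen in 21 of 60 cells (35.0%, 23.1% to 48.4%), Cd8a or Cd8b1 alone in 10 (16.7%, 8.29% to 28.5%), both in 0 and neither in 29 (48.3%). In WT at 6 months 0 of 4 cells had Cd4, 1 had Cd8 and 3 had neither. In CCR2-DTR at 1 month 1 of 6 had Cd4 alone, 2 Cd8 alone, 1 both and 2 neither, and in WT at 1 month 1 of 5 had Cd4, 1 Cd8 and 3 neither. In endothelial barcodes Cd4 reached at most 0.145% and Cd8a and Cd8b1 were at 0, so a UMI in a T cell stood above background. Absence of a UMI says little at this depth, since after thinning each cell to 1000 UMIs Cd4 alone was left in 2 of 60 and Cd8 alone in 6 of 60 cells. Classes by coreceptor are thus cells with the UMI, and the class without one may hold cells of both kinds.

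Ccl5, which attracts T cells and monocytes, and the granzyme Gzmk, both genes of cytotoxic memory T cells, were seen in 32 and 12 of 60 cells in CCR2-DTR islets at 6 months. Ccl5 (chromosome 11, 83525778 to 83530518, minus strand, GRCm38) had 1024 UMIs in 32 of 60 cells, with up to 162 in 1 cell, and a summed level of 2793 CPM. In WT at 6 months it had 46 UMIs in 1 of 4 cells, in CCR2-DTR at 1 month 13 in 1 of 6, and in WT at 1 month 91 in 3 of 5. It was carried by 10 of 10 Cd8-bearing, 10 of 21 Cd4-bearing and 12 of 29 cells with neither coreceptor. Endothelial barcodes had it in 0.539% in that library.

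Gzmk was seen in 12 of 60 cells in CCR2-DTR at 6 months and in 1 of 4, 0 of 6 and 0 of 5 cells in WT at 6 months, CCR2-DTR at 1 month and WT at 1 month. Of the 12 cells, 6 carried Cd8, 4 carried Cd4, 11 carried Ccl5 and 4 carried Eomes, a transcription factor of memory killer cells. Eomes was at 0 in the other 3 libraries. The cell-killing genes Gzmb and Prf1 were low, at 10 and 5 UMIs in CCR2-DTR at 6 months. Gzma was a property of single cells, with 3 UMIs in 1 cell in CCR2-DTR at 6 months, 47 in 1 cell in WT at 6 months, 0 in CCR2-DTR at 1 month and 132 in 1 cell in WT at 1 month.

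A second set of genes, those of T cells that help B cells, fell on the Cd4 side. The list of 10 follicular-helper genes was chosen after the values were seen, so its counts describe and test nothing. At least 3 of its genes were present in 11 of 21 Cd4-bearing, 0 of 10 Cd8-bearing and 6 of 29 other cells in CCR2-DTR at 6 months. Izumo1r had 52 UMIs in 17 of 60 cells, of which 10 carried Cd4, 0 carried Cd8 and 3 carried Ccl5. The helper cytokine Il21 had 12 UMIs in 5 cells, all with Cd4, and 9 of the 12 lay in the 3 dividing cells. Cxcr5, the receptor that guides cells to B cell follicles, had a UMI in 5 cells, the inhibitory receptor Pdcd1 in 9, the costimulator Icos in 18 and the transcription factor Bcl6 in 5. In endothelial barcodes of that library Bcl6 had a UMI in 13 of 371, and Cxcr5 and Icos in 1 each. Cd200, also on the list, was in 8 of 60 T cells and in 94.1% of endothelial barcodes, so its share in T cells gives no support to a call.

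Of the helper list, Il21, Cxcr5, Pdcd1 and Tox2, a transcription factor, had 0 UMIs in the 15 T cells of the other 3 libraries. That is no sign of a difference, since those libraries held 17756, 24766 and 11889 T cell UMIs in all, against 366623. In WT at 6 months 1 cell of 4 had Izumo1r, in CCR2-DTR at 1 month 1 of 6, and in WT at 1 month 2 of 5.

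Foxp3, the defining factor of regulatory T cells, had a UMI in 6 of 60 cells in CCR2-DTR at 6 months, in 1 of 4 in WT at 6 months and in 0 of 6 and 0 of 5 cells of CCR2-DTR and WT at 1 month. None of the 6 had a Cd4 or a Cd8 UMI. Endothelial barcodes had no Foxp3 UMI in any library. Other genes of the regulatory list were broader, with the inhibitory receptor Ctla4 in 15 cells, the transcription factor Ikzf2 in 24 and the receptor Tnfrsf18 in 24 of the 60. Ikzf2 had a UMI in 6.47% of endothelial barcodes there, and the other 2 genes in 0%.

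Few T cells held a set of division genes, and those carried Cd4. Top2a, a topoisomerase of dividing cells, had 5, 13 and 33 UMIs in 3 cells of 12164, 18202 and 37160 UMIs and 0 in the other 57. Those 3 cells, the only ones with at least 3 of 9 division genes (a list chosen after the values were seen), all carried Cd4 and gave 18.4% of the library's T cell UMIs. Mki67 had 23 UMIs in 5 cells. In the other 3 libraries Top2a and Mki67 had 0 UMIs in T cells, which at 4 to 6 cells each is no sign of a difference. Endothelial barcodes had Top2a in 0.270% in CCR2-DTR and 0% in WT at 6 months, and in 9.25% in CCR2-DTR against 1.80% in WT at 1 month.

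Some members carried gamma-delta receptor RNA. Trdc, the constant region of the delta chain, had a UMI in 6 of 60 cells in CCR2-DTR at 6 months, 1 of 4 in WT at 6 months, 0 of 6 in CCR2-DTR at 1 month and 3 of 5 in WT at 1 month. Endothelial barcodes had none. Of these 10 cells, 7 carried Cxcr6, a receptor of tissue-resident lymphocytes, 5 had no Trac UMI, 2 had Cd4 and 2 had Cd8. Trdc lies inside the alpha chain locus on chromosome 14 (54142851 to 54148868), so a Trdc UMI alone does not name the receptor a cell uses. Variable region genes were seen in few cells, at 24 UMIs of 13 genes in 15 of the 60 cells, with Trgv2 in 5. These UMIs are too few to describe clones.

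The state of the cells was read from 2 sets of genes. The naive-type gate asked for at least 2 of 6 genes, among them Ccr7, Lef1, S1pr1, Igfbp4 and Dapl1, and the experienced-type gate for at least 2 of Cxcr6, Ccl5, Nkg7, S100a4, Cd44, Itgb1, Id2 and Ahnak. The experienced-type gate held 48 of 60 cells (80.0%, 67.7% to 89.2%) in CCR2-DTR and 4 of 4 in WT at 6 months, and 2 of 6 in CCR2-DTR against 4 of 5 in WT at 1 month. The naive-type gate held 13 of 60 (21.7%, 12.1% to 34.2%) in CCR2-DTR and 0 of 4 in WT at 6 months, and 5 of 6 (83.3%, 35.9% to 99.6%) in CCR2-DTR against 1 of 5 in WT at 1 month. Both gates were passed by 11 of the 60 cells and by 1 of 6, the large cell with mesenchymal genes, and neither by 10 of the 60.

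With each cell thinned to 1000 UMIs, the experienced-type gate held 33 of 60, 4 of 4, 1 of 6 and 4 of 5 cells and the naive-type gate 3 of 60, 0 of 4, 3 of 6 and 1 of 5, in the order CCR2-DTR and WT at 6 months, CCR2-DTR and WT at 1 month. The share in the naive-type gate was higher in CCR2-DTR at 1 month than in the other 3 libraries under both counts. Its interval before thinning overlapped those of WT at 1 month (0.505% to 71.6%) and WT at 6 months (0% to 60.2%). Endothelial cells themselves held much S1pr1, Itgb1 and Ahnak RNA (UMIs in 79.2%, 87.1% and 79.5% in CCR2-DTR at 6 months), with Id2 in 35.6% and Igfbp4 in 18.9%, so they give no background for these 5 genes. Lef1, Cxcr6, Nkg7 and Cd44 reached 1.35%, 0%, 0.270% and 0.539% there.

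**Figure D3:**
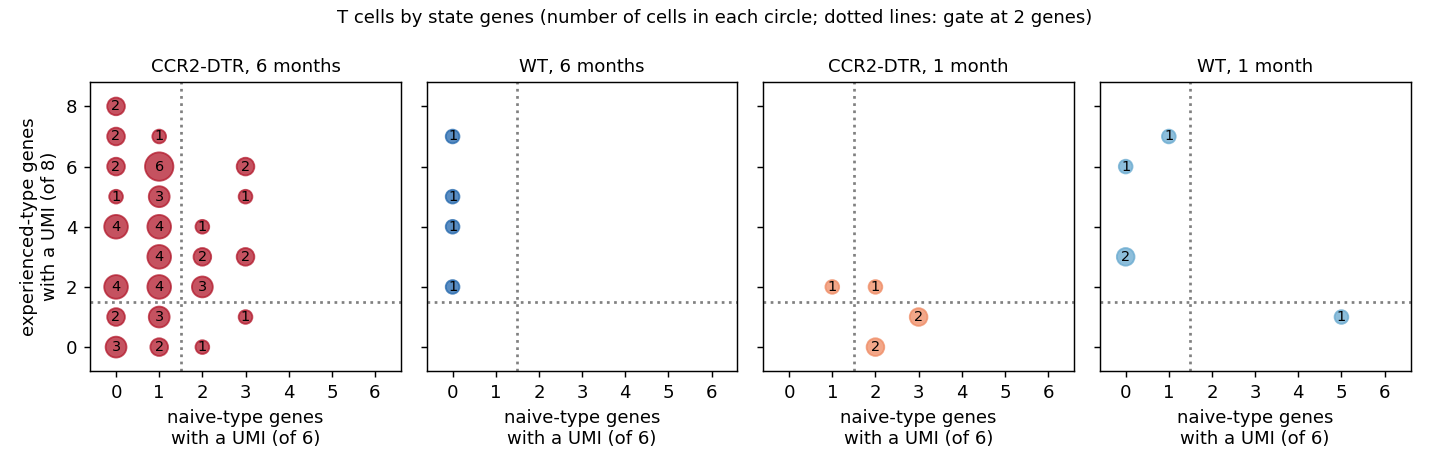
Number of naive-type genes (x, of 6) and experienced-type genes (y, of 8) with a UMI in each T cell, in 4 panels for the libraries; the number in a circle counts cells, and dotted lines mark the gates. In CCR2-DTR at 6 months 48 of 60 cells lie above the horizontal line, and in CCR2-DTR at 1 month 5 of 6 lie right of the vertical line.

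Between ages, T cells of CCR2-DTR islets were compared over 4032 genes with at least 10 UMIs, of which 8.9% were past 2-fold higher and 20.1% past 2-fold lower at 6 months. Lef1, a transcription factor of naive T cells, was at 81.8 CPM at 6 months and 485 CPM at 1 month, a ratio of 0.169 (0.0840 to 0.362), and of 0.157 (0.0767 to 0.339) without cells over 10000 UMIs. Ccl5 was at 2793 CPM at 6 months and 525 CPM at 1 month, a ratio of 5.32 (3.10 to 10.0), and 5.37 (3.13 to 10.1) without the large cells. The class I antigen presentation gene H2-K1 was at 2237 CPM at 6 months and 888 CPM at 1 month, a ratio of 2.52 (1.65 to 4.04), and 2.25 (1.45 to 3.71) without them. The naive list held 1 of 8 measured genes past 2-fold higher and 4 past 2-fold lower at 6 months, with a median log2 ratio of -0.98, against -0.25 over all genes. The experienced and tissue-resident list held 6 of 11 higher and 0 lower, with a median of 1.43. Without the large cells it held 4 of 11 higher and 1 lower, with a median of 0.84, where 7.31% of all 2107 genes were higher and 18.5% lower, with a median of -0.26.

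Other leading genes of the age comparison rested on 1 UMI at 1 month. Itgb1, an integrin subunit of experienced cells, had 127 UMIs at 6 months and 1 at 1 month, a ratio of 8.58 (1.51 to 341). Rgs1, a regulator of chemokine signals in resident lymphocytes, had 118 and 1, a ratio of 7.97 (1.40 to 317), and Hmgb2, a chromatin protein high in dividing cells, 212 and 1, a ratio of 14.3 (2.54 to 568). Without the large cells the interval of Rgs1 (0.933 to 214) and of Hmgb2 (0.709 to 165) included 1, and Itgb1 had 77 UMIs and 0, at least 1.79-fold higher. Srgn, the granule proteoglycan, had 289 UMIs at 6 months and 3 at 1 month, a ratio of 6.51 (2.20 to 31.7), and of 3.92 (1.32 to 19.2) without the large cells. Klf9, a transcription factor induced by glucocorticoids, had 11 UMIs at 6 months and 6 at 1 month, a ratio of 0.124 (0.0420 to 0.408).

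At 1 month T cells of CCR2-DTR and WT islets were compared over 431 genes, with 17.4% past 2-fold higher and 20% past 2-fold lower in CCR2-DTR. Ccl5 was at 525 CPM in CCR2-DTR (13 UMIs in 1 of 6 cells) and 7654 CPM in WT (91 UMIs in 3 of 5), a ratio of 0.0686 (0.0352 to 0.123). Nkg7 was at 162 CPM in CCR2-DTR and 1093 CPM in WT, a ratio of 0.148 (0.0351 to 0.478). Trdc had 0 UMIs in CCR2-DTR, against 18 in 3 of 5 cells in WT, at most 0.0800 of the WT level. Tcrg-C1, a gamma chain constant region, had 0 UMIs in CCR2-DTR, against 16 in WT, at most 0.0900 of the WT level. Without the cell with mesenchymal genes, the ratio of Ccl5 was 0.131 (0.0671 to 0.235) and that of Nkg7 0.282 (0.0669 to 0.912), and Trdc was at most at 0.153 of the WT level. The receptor gene Cd3g, used by the selection, was at 404 CPM in CCR2-DTR and 3112 CPM in WT.

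Ttr, Pcsk2 and Cst3 were higher in CCR2-DTR at 1 month. Ttr had 77 UMIs in CCR2-DTR, against 0 in WT, at least 12.3-fold higher, and at least 3.36-fold higher without the cell with mesenchymal genes. Ttr and Pcsk2 belong to islet endocrine cells, and the median hormone share was 11.6% in those T cells against 3.31% in WT. Ttr had a UMI in 86.4% of endothelial barcodes in CCR2-DTR and 50.4% in WT at that age. Lef1, with 12 UMIs in CCR2-DTR and 2 in WT, had a ratio of 2.88 (0.641 to 26.5), and of 5.49 (1.22 to 50.5) among cells of at most 10000 UMIs. Klf2, a factor of recirculating cells, with 17 UMIs in CCR2-DTR and 2 in WT, had a ratio of 4.08 (0.969 to 36.4), and of 7.78 (1.85 to 69.4) among those cells. With 6 and 5 cells, each of these values can rest on a single cell.

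At 6 months no comparison by gene was made, because WT held only 4 T cells. Their values stand side by side for the genes followed above. Cxcr6 had a UMI in 18 of 60 cells in CCR2-DTR and 3 of 4 in WT, Nkg7 in 27 of 60 and 3 of 4, and S100a4, a calcium-binding protein of memory cells, in 23 of 60 and 1 of 4. Lef1 had a UMI in 23 of 60 cells in CCR2-DTR and 0 of 4 in WT, and Tcf7, its partner in naive and stem-like T cells, in 32 of 60 and 0 of 4. Ltb, lymphotoxin beta, was widespread, in 50 of 60 and 4 of 4 cells. At 0 of 4 cells the exact interval reaches 60.2%.

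**Figure D4:**
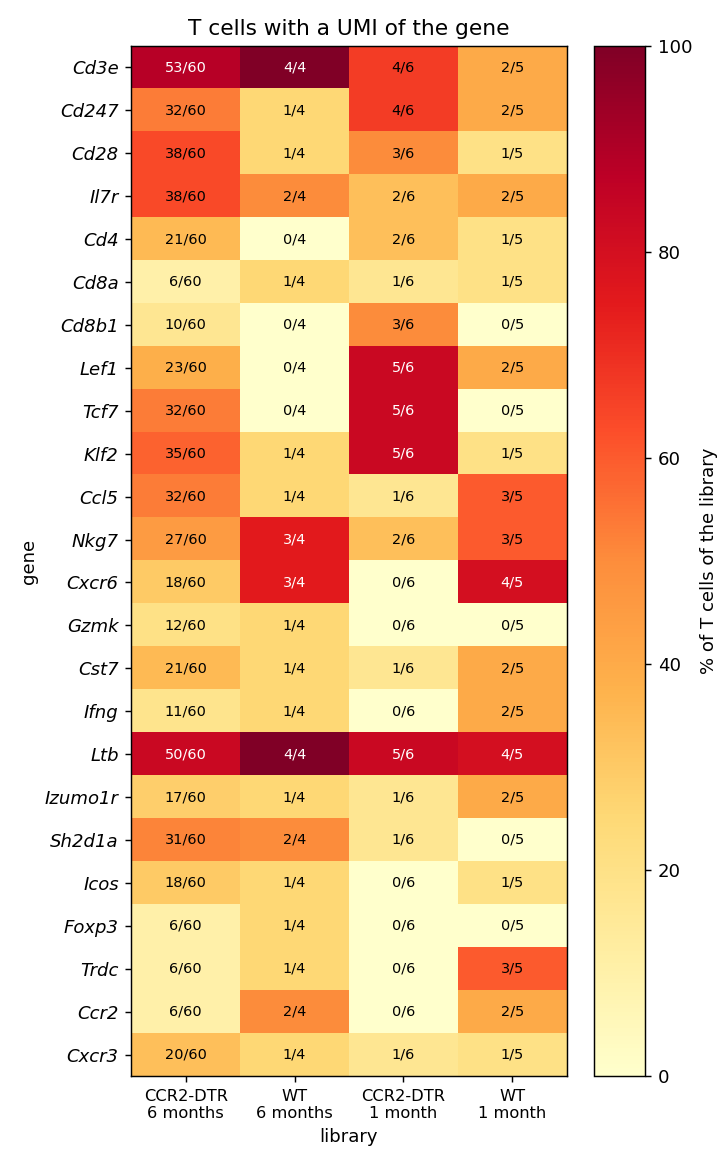
Share of T cells with a UMI of each gene (rows) in the 4 libraries (columns), coloured from 0% to 100%, with the number of cells with a UMI over all T cells of the library printed in each field. Ltb and Cd3e were seen in most T cells of CCR2-DTR and WT at 6 months, and Lef1 and Tcf7 in 5 of 6 T cells of CCR2-DTR at 1 month.

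Ccr2, the gene after which the transgene is named, was seen in few T cells of CCR2-DTR islets. It had a UMI in 6 of 60 cells (10.0%, 3.76% to 20.5%) in CCR2-DTR and 2 of 4 in WT at 6 months, and in 0 of 6 in CCR2-DTR against 2 of 5 in WT at 1 month. Macrophage barcodes had it in 37.9% in CCR2-DTR and 38.5% in WT at 6 months, and in 35.5% in CCR2-DTR against 9.74% in WT at 1 month. Endothelial barcodes had it in 1.89%, 0.311%, 1.45% and 0%, in the order CCR2-DTR and WT at 6 months, CCR2-DTR and WT at 1 month.

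Ccr3, a chemokine receptor gene, was seen in endothelial and macrophage barcodes of both CCR2-DTR libraries and in none of those of WT. The gene, which neighbours Ccr2 on chromosome 9, had a UMI in 7 of 60 T cells in CCR2-DTR at 6 months and in none in the other 3 libraries. Endothelial barcodes had Ccr3 in 5.39% in CCR2-DTR and 0% in WT at 6 months, and in 5.06% in CCR2-DTR against 0% in WT at 1 month. Macrophages had Ccr3 in 12.9% in CCR2-DTR and 0% in WT at 6 months, and in 7.80% and 0% at 1 month. The difference in Ccr3 between CCR2-DTR and WT libraries thus stood in endothelial and macrophage barcodes. At 6 months the T cell interval was 4.82% to 22.6% in CCR2-DTR and 0% to 60.2% in WT. T cells alone thus showed no difference beyond counting error. What this library difference adds to the T cell values was not tested. Cxcr3, a receptor of effector cells for interferon-induced chemokines, had no UMI in endothelial barcodes. It was seen in 20 of 60 T cells in CCR2-DTR and 1 of 4 in WT at 6 months, and in 1 of 6 and 1 of 5 at 1 month.

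Within CCR2-DTR islets at 6 months the 10 Cd8-bearing cells were set against the 21 Cd4-bearing cells, which share library, age and genotype. Median depth was 5100 and 4527 UMIs. Of 3749 genes, 10.4% were past 2-fold higher and 26.9% past 2-fold lower in Cd8-bearing cells. Of the Cd4-bearing cells 7 had over 10000 UMIs, the 3 dividing ones and 4 rich in hormone RNA among them, and of the Cd8-bearing cells 1 had over 10000 UMIs and 2 held macrophage genes. Without cells over 10000 UMIs, 9 Cd8-bearing and 14 Cd4-bearing cells were left, and of 1343 genes 7.52% were past 2-fold higher and 19.6% past 2-fold lower.

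Cytotoxic genes were higher in Cd8-bearing cells. Ccl5 was at 6881 CPM in Cd8-bearing and 1117 CPM in Cd4-bearing cells, a ratio of 6.16 (5.20 to 7.31), and 2.06 (1.73 to 2.46) without the large cells. Nkg7 had 61 UMIs in 10 of 10 Cd8-bearing and 42 in 7 of 21 Cd4-bearing cells, a ratio of 5.43 (3.61 to 8.25), and 2.22 (1.41 to 3.55) without the large cells. Cst7, an inhibitor of granule proteases, had 10 UMIs in 6 Cd8-bearing and 3 UMIs in 3 Cd4-bearing cells, a ratio of 12.5 (3.21 to 70.5), and without the large cells an interval of 0.873 to 20.1. All 5 measured cytotoxic genes were past 2-fold higher, and 3 of 5 without the large cells.

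Satb1, a chromatin organiser of naive and developing T cells, had 11 UMIs in 5 Cd8-bearing and 2 UMIs in 2 Cd4-bearing cells, a ratio of 20.6 (4.49 to 191), and 11.7 (1.66 to 506) without the large cells. Ctla2a, a protease inhibitor, had 24 UMIs in 8 Cd8-bearing and 9 UMIs in 4 Cd4-bearing cells, a ratio of 9.98 (4.48 to 24.4) and 13.4 (3.31 to 117) without them. Ctsc, which activates granzymes, had 20 UMIs in Cd8-bearing and 3 in Cd4-bearing cells, and Vsir, an immune checkpoint protein, 11 and 2. Ctsc and Vsir fell below 10 UMIs, and so had no value, once the large cells or those with macrophage genes were left out. The macrophage list had 7 of 7 measured genes past 2-fold higher in Cd8-bearing cells, and 5 of 5 without the large cells, where 1 cell with all 5 macrophage genes of the gate was left. Its gene Apoe had 373 UMIs in 2 Cd8-bearing cells and 0 in Cd4-bearing cells. The part of these cells in the ratios of Ctsc and Vsir was not tested beyond leaving them out.

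Of the naive list 5 of 6 measured genes were past 2-fold higher in Cd8-bearing cells, and 1 of 6 without the large cells, with medians of 1.72 and 0.27 on the log2 scale. Over all genes the medians were -0.27 and -0.19.

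Receptor constant regions differed in part. Trac was at 0.356 (0.179 to 0.645) of the level of Cd4-bearing cells and at 0.304 (0.147 to 0.583) without the large cells, and was seen in 6 of 10 Cd8-bearing and 21 of 21 Cd4-bearing cells. Trbc2 had 694 CPM in Cd8-bearing and 686 CPM in Cd4-bearing cells. Both genes were used by the selection. Il7r had 53 UMIs in 10 of 10 and 44 UMIs in 12 of 21 cells, a ratio of 4.51 (2.97 to 6.88), which was 1.53 (0.986 to 2.40) without the large cells.

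Helper and regulatory genes stood lower in Cd8-bearing cells. Izumo1r had 0 UMIs in Cd8-bearing and 28 in 10 Cd4-bearing cells, at most 0.401 of the level, and at most 0.159 without the large cells. Ikzf2 had 0 UMIs in Cd8-bearing and 50 in 11 Cd4-bearing cells, at most 0.225 of the level. Tox, a factor of chronically stimulated and helper cells, had 0 UMIs in Cd8-bearing and 34 in 12 Cd4-bearing cells, at most 0.330 of the level. Sh2d1a had 3 UMIs in Cd8-bearing and 47 in 13 Cd4-bearing cells, a ratio of 0.239 (0.0476 to 0.742), and 0.233 (0.0433 to 0.824) without the large cells. The regulatory list had 0 of 6 measured genes past 2-fold higher and 4 lower, and 0 and 3 of 4 without the large cells. Of the 6 values 4 were bounds, and none of the 6 cells with Foxp3 was in either class. S100a4 had 4 UMIs in 1 Cd8-bearing and 94 UMIs in 10 Cd4-bearing cells, a ratio of 0.159 (0.0425 to 0.421), and 0.117 (0.0303 to 0.322) without the large cells. Maf, a transcription factor of helper cells, had 3 UMIs in Cd8-bearing and 37 in Cd4-bearing cells, a ratio of 0.303 (0.0598 to 0.958), and 0.101 (0.0116 to 0.410) without the large cells.

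Division and endocrine genes were lower in Cd8-bearing cells over all members. Without the large cells, which include the 3 dividing ones, most division genes had too few UMIs for a value. Their difference could therefore not be checked there. Most endocrine genes were then no longer past 2-fold lower. Pcna, a replication clamp, had 2 UMIs in Cd8-bearing and 65 in Cd4-bearing cells, a ratio of 0.115 (0.0137 to 0.433). Top2a had 0 UMIs in Cd8-bearing and 51 in 3 Cd4-bearing cells, at most 0.220 of the level. All 7 measured division genes were past 2-fold lower, whereas without the large cells 1 was measured, Hmgb2, at 0.823 (0.359 to 1.83). Batf, an activation factor, had 1 UMI in Cd8-bearing and 40 in 7 Cd4-bearing cells, a ratio of 0.0935 (0.00231 to 0.552), and too few UMIs for a value without the large cells. Ttr was at 0.0269 (0.0150 to 0.0445) of the level of Cd4-bearing cells, and at 1.17 (0.515 to 2.64) without the large cells. Of 11 islet endocrine genes 8 were past 2-fold lower, and 1 of 10 without the large cells.

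**Figure D5:**
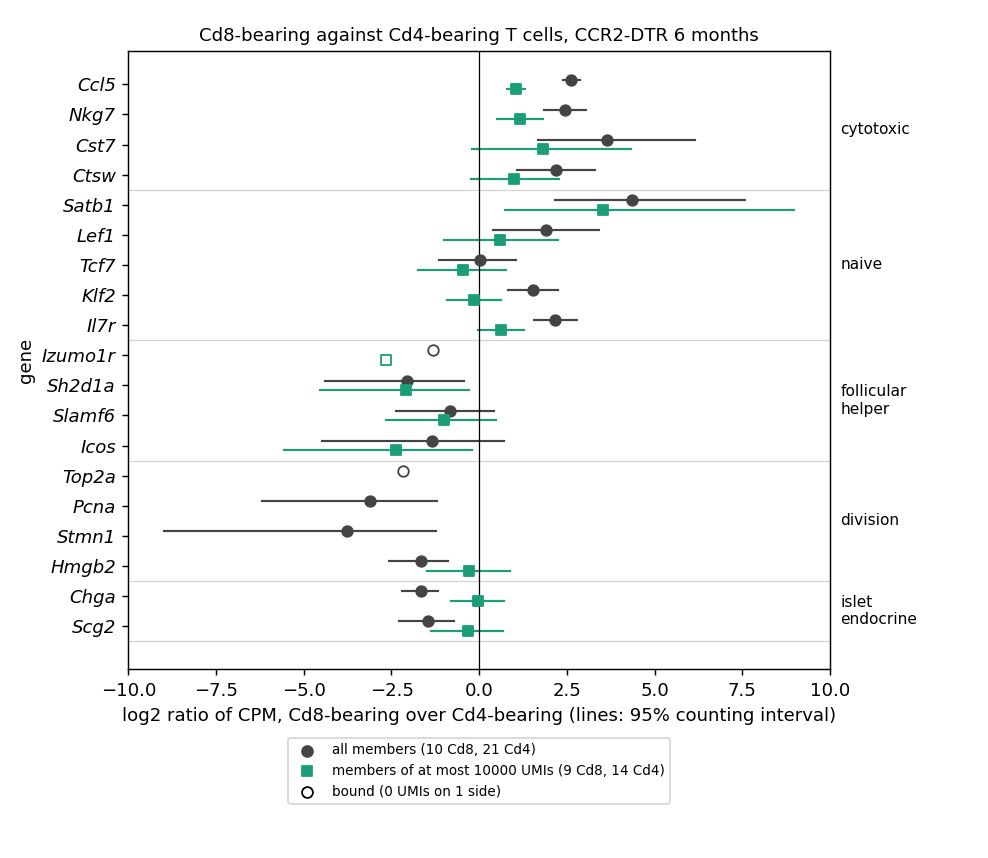
Log2 ratio of summed CPM, Cd8-bearing over Cd4-bearing T cells of CCR2-DTR islets at 6 months (x), for listed genes (y), over all members (circles) and over members of at most 10000 UMIs (squares). Lines are 95% counting intervals and open symbols are bounds. Ccl5 and Nkg7 stay above 0 and Izumo1r and Sh2d1a below 0 in both, whereas Chga and Scg2 lie below 0 only over all members, and of the 4 division genes only Hmgb2 had enough UMIs without the large cells.

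T cells of CCR2-DTR islets at 6 months were also set against the B cells and macrophages of the same library. These cells were picked by marker genes, so the values describe the gates. Against B cells 18.8% of 8634 genes were past 2-fold higher and 8.98% past 2-fold lower in T cells, and against macrophages 16.5% and 15.6% of 10097. T cells over 10000 UMIs were then left out, while all 52 B cells and 140 macrophages stayed, whatever their depth. With the 51 T cells left, 20.1% of 7728 genes were higher and 14.6% lower than in B cells. Against macrophages 17.4% of 9058 were higher and 18.7% lower. Ccl5 was at 2793 CPM in T cells (1024 UMIs), at 1 UMI in B cells and at 91.3 CPM in macrophages. Il7r was at 442 CPM in T cells, 0 in B cells and 68.1 CPM in macrophages. Ltb was shared with B cells, at 415 CPM in T cells against 166 CPM in B cells, and low in macrophages at 5.42 CPM. Without the large cells, T cells had 5380 CPM of Ccl5, 819.9 CPM of Il7r and 648 CPM of Ltb. Rgs1 was at 322 CPM in T cells, 82.4 CPM in B cells and 779 CPM in macrophages.

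Of 10 measured genes of the naive and recirculating list, 4 were past 2-fold higher in T cells than in B cells and 1 lower, and 7 and 1 without the large cells. Klf2 was at 396 CPM in T cells and 310 CPM in B cells, a ratio of 1.28 (1.02 to 1.58), and of 2.30 (1.83 to 2.87) without the large cells. The ratio was 1.05 (0.594 to 1.83) for S1pr1, the receptor for exit into lymph, and 1.41 (0.722 to 2.63) without them. Cd44, an adhesion receptor of activated cells, had a ratio of 0.880 (0.545 to 1.39) against B cells and 1.03 (0.658 to 1.58) against macrophages. Division genes were past 2-fold higher in T cells than in macrophages at 11 of 11 measured, but at 2 of 6, with 1 lower, without the large cells, which include the 3 dividing ones. Against B cells 4 of 12 were higher and 3 lower, and without the large T cells 0 higher and 5 lower. B cells and macrophages had no upper limit on depth there, so the sides were not treated alike.

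Effector cytokines were sparse. Ifng, the interferon of type 1 responses, had 16 UMIs in 11 of 60 cells in CCR2-DTR and 2 UMIs in 1 of 4 in WT at 6 months, and 0 in CCR2-DTR and 2 UMIs in 2 of 5 in WT at 1 month. The chemokines Ccl4 and Ccl3 had 29 UMIs in 7 cells and 7 UMIs in 3 cells in CCR2-DTR at 6 months and 0 elsewhere. Il17a, Il5, Il13, Il22 and Csf2 had 0 UMIs in all 75 cells. At 366623 T cell UMIs in CCR2-DTR at 6 months, that allows up to 8.18 CPM each. At 1 month it allows up to 121 CPM in CCR2-DTR and 252 CPM in WT. The limit is also higher in WT at 6 months, with 17756 T cell UMIs. Il10 had 5 UMIs in 1 cell.

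The list of interferon-induced and MHC class I genes had a summed level of 6156 CPM in CCR2-DTR and 7603 CPM in WT T cells at 6 months, and 3109 CPM in CCR2-DTR and 6897 CPM in WT T cells at 1 month. Endothelial barcodes had 5754 CPM in CCR2-DTR and 4678 CPM in WT at 6 months, and 3217 CPM in CCR2-DTR and 3496 CPM in WT at 1 month. H2-K1 and B2m were seen in 60 of 60 T cells in CCR2-DTR at 6 months. Isg15, which interferon induces, had 48 UMIs in 7 of 60 cells in CCR2-DTR at 6 months, 36 of them in 1 cell, 2 UMIs in 2 of 4 cells in WT at 6 months and 0 at 1 month in both genotypes. Endothelial barcodes had Isg15 in 28.2% to 31.1% in the 4 libraries. Immediate early genes, which cell isolation induces, had a summed level of 5976 CPM in CCR2-DTR and 6082 CPM in WT T cells at 6 months, and 5330 CPM in CCR2-DTR and 4626 CPM in WT T cells at 1 month. In endothelial barcodes the level was 6888 CPM in CCR2-DTR and 6061 CPM in WT at 6 months, and 4786 CPM in CCR2-DTR and 5213 CPM in WT at 1 month.

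Ighm, the heavy chain gene of IgM, was seen in T cells more often than in endothelial barcodes, although the selection left out B cells by Cd79a and Ms4a1. It had a UMI in 28 of 60 T cells in CCR2-DTR and 2 of 4 in WT at 6 months, and in 3 of 6 and 2 of 5 at 1 month. Endothelial barcodes had it in 13 of 371 in CCR2-DTR and 0.932% in WT at 6 months, and in 1.30% in CCR2-DTR against 0.450% in WT at 1 month, and macrophages in 60.0% in CCR2-DTR at 6 months. Igkc, the kappa light chain, was in 11 of 60 T cells and 12.7% of endothelial barcodes in CCR2-DTR at 6 months. Cd74, a chain of antigen presentation, had 691 UMIs in 8 cells in that library and 0 in T cells of the other 3.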

How the data were processed

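Islet cells of 4 libraries were measured by 10x Genomics Chromium single-cell RNA sequencing. The authors deposited raw UMI counts per gene and barcode, made with Cell Ranger 5.0.1 on mm10, per the file headers and the submitters' processing notes. The other deposited files name barcodes and genes. No source used here gives the annotation release or says whether introns were counted. Libraries held 5089 to 12444 barcodes and 60315217 to 121292320 UMIs over 32285 genes. Gene coordinates are those of GRCm38.

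Counts of T cells were summed per library and scaled to CPM. Shares have exact Clopper-Pearson intervals, CPM exact Poisson intervals and ratios exact conditional intervals. A count of 0 was set to 3 counts over the set of cells, which gives a bound, and a bound pointing against the counts gave no value. Comparisons took genes with at least 10 UMIs over both sets and at least 5 cells in each set. "Past 2-fold" is a size, not a test. The interval of a ratio was tested on simulated Poisson counts for T cells against B cells. These counts were drawn over summed cells, so the test does not cover UMIs concentrated in single cells. Shares and gates were not simulated. Doublets were kept, with a Scrublet score limit (scanpy 1.11.5) as an alternative. Cells were gated by genes and not clustered. The B cell and naive-type gates each used 1 further gene that is not reported here.

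Named genes were members of 27 gene lists, the 25 genes leading T cells over other barcodes, and the 15 highest and 15 lowest ratios of each comparison. Members and lists were chosen with earlier results of these data known. The follicular-helper and division lists, the removal of cells over 10000 UMIs and genes named outside that rule were chosen after their values were seen. Tools were Python 3.11.15, numpy 2.4.6, pandas 2.3.3, scipy 1.17.1 and matplotlib 3.10.9.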

Additional observations from a re-analysis of the deposited data

Results flagged for a closer look

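The difference between genotypes in coreceptor classes had opposite signs at the 2 ages, and that change of sign was not tested. The share of T cells with Cd4 alone, CCR2-DTR minus WT, was 35.0 percentage points at 6 months and -3.33 at 1 month. The sign for Cd4 at 1 month rests on 1 CCR2-DTR cell that had both coreceptors and so fell in neither class. Counted as a cell with Cd4, it would put the CCR2-DTR share above that of WT. The share with Cd8a or Cd8b1 alone differed by -8.33 points at 6 months and 13.3 points at 1 month. Each rests on 60 and 4 cells at 6 months and on 6 and 5 cells at 1 month. The intervals of the shares overlapped in each pair.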

How the results depend on the processing

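Each value rests on few cells, 4 to 6 T cells in 3 of the 4 libraries, and 1 library stands for each group. No paired analysis was possible because each group has 1 library and the labels give no replicate numbers, and leaving out a replicate was not possible for the same reason. The CCR2-DTR over WT ratio of T cell shares at 6 months lay above 1 in all 13 alternatives (5.25 to 15.5). With hormone RNA under 10%, the ratio at 1 month was 0.204 (0.00432 to 1.83), from 1 CCR2-DTR and 5 WT cells. The ratio of 6 months over 1 month in CCR2-DTR was then 95.3 (16.3 to 3845), from 47 and 1 cells. Over Ptprc barcodes that ratio between ages was 6.71. With each cell thinned to 1000 UMIs, Cd4 alone was left in 3.33% of T cells in CCR2-DTR at 6 months and 0% at 1 month. No coreceptor UMI was then found in 86.7% at 6 months and 83.3% at 1 month, and at 6 months the naive-type gate held 5% and the experienced-type gate 55.0%. Counts of genes past 2-fold moved with several settings, of which the removal of the 10 large cells was chosen after the data were seen. For 6 months over 1 month in CCR2-DTR, 359 genes higher became 828 with equal weight per cell, 561 with median-ratio scaling, 146 with at least 3 selection genes, 166 with the Scrublet limit and 154 without large cells. The 809 genes lower became 329 at a minimum of 20 UMIs, 1637 at a minimum of 5 and 390 without large cells. For CCR2-DTR over WT at 1 month, 75 higher became 28 at 20 UMIs, 168 at 5 UMIs and 32 with each of the 3 stricter choices of cells (at least 3 selection genes, Scrublet, no large cells). The 86 lower became 27, 311 and 39 under the same settings. For Cd8-bearing over Cd4-bearing cells, 389 higher became 141 at 20 UMIs, 904 at 5 UMIs, 249 with the Scrublet limit and 101 without large cells, and 1009 lower became 483 at 20 UMIs and 263 without large cells. For T cells over B cells, 1622 higher became 929 at 20 UMIs and 961 with median-ratio scaling, and 775 lower became 395 at 20 UMIs. For T cells over macrophages, 1668 higher became 1087 at 20 UMIs. Among single genes, 5 Cd8-bearing over Cd4-bearing log2 ratios changed sign. Ttr had 0.80 with the Scrublet limit and 0.22 without large cells, Meg3 1.36 and 0.81, and Resp18 0.041 with the Scrublet limit. Another 66 values of single genes moved and 998 did not. The causes were not tested. The comparison of genotypes by gene at 6 months gave no value, since WT held under 5 T cells.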
